A study of Homo sapiens with 12 samples.

Results

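The matrix metalloproteinases (MMPs), the ADAM and ADAMTS proteases and the tissue inhibitors of metalloproteinases (TIMPs) were followed through blood differentiation of the human embryonic stem cell line H1. Members were chosen by symbol alone, as MMP, ADAM or ADAMTS with a number, or TIMP1 to TIMP4, which gave 69 of the 56593 gene symbols in the expression table. Of these 69 genes, 38 reached 1 FPKM (fragments per kilobase of transcript, scaled to the mapped fragments of the library) in 3 or more of the 12 libraries. They comprised 9 of 24 MMPs, 9 of 22 ADAMs, 16 of 19 ADAMTSs and 4 of 4 TIMPs.

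All 4 groups came from H1, an established line, and each had 3 libraries of bulk RNA. Undifferentiated H1 cells were compared with APLNR+ mesoderm cells sorted on day 2, CD31+CD34+ hemogenic endothelial progenitors sorted on day 5 and CD43+ hematopoietic progenitors sorted on day 8. The cultures received activin A and BMP4 first, then VEGF and bFGF. The labels number the libraries of a group but do not say whether they came from separate cultures, so the p-values measure only the spread between these libraries, which may be technical.

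Marker genes were compared with the labels. The summed level of 5 mesoderm markers was 0.814 to 0.938 FPKM in H1, 525 to 571 in APLNR+ and 388 to 437 in CD31+CD34+ libraries. APLNR itself averaged 383 FPKM in APLNR+ and 403 FPKM in CD31+CD34+ cells, and made up most of the latter sum. MIXL1, EOMES, MESP1 and T averaged 71.3, 56.45, 26.2 and 4.44 FPKM in APLNR+ cells. In CD31+CD34+ cells they averaged 1.10, 4.14, 1.08 and 1.06 FPKM. Pluripotency markers summed to 1790 to 1880 FPKM in H1, 559 to 640 in APLNR+, 297 to 374 in CD31+CD34+ and 146 to 172 in CD43+ libraries. LIN28A was the largest part of the later sums, at 217 FPKM in CD31+CD34+ and 118.5 FPKM in CD43+ cells. POU5F1, NANOG, SOX2 and DPPA4 averaged 12.5, 1.44, 0.0609 and 27.2 FPKM in CD43+ cells, against 1002, 48.6, 43.0 and 316 in H1 cells. Endothelial markers summed to 243 to 313 FPKM in CD31+CD34+ libraries and still to 155 to 205 FPKM in CD43+ libraries, where 5 of 5 averaged at least 1 FPKM. Blood markers reached 712 to 768 FPKM in CD43+ libraries, where ITGA2B alone averaged 575 FPKM. PTPRC, which encodes the pan-leukocyte antigen CD45, averaged only 0.197 FPKM there. Libraries of a group correlated at 0.966 to 0.990 over genes and libraries of different groups at 0.731 to 0.910. The summed FPKM of a library ranged from 567793 to 1564450 and differed within groups, being 1376270 in CD31+CD34+ replicate 1 against 567793 and 573082 in the others, and 646818 in APLNR+ replicate 1 against 1564450 and 1292870. FPKM values keep no read totals, so the depth behind each value is unknown.

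MMPs are zinc proteases that cut collagens and other matrix proteins, either after secretion or while anchored in the cell membrane. ADAMs are membrane proteins, many of which release the outer part of other membrane proteins, including Notch receptors and growth factor precursors, and ADAMTSs are secreted proteases that act on proteoglycans, procollagens and microfibrils. TIMPs inhibit these enzymes, with TIMP3 having the widest reach because it also inhibits ADAM17 and several ADAMTSs. Matrix remodelling of this kind accompanies the migration of mesoderm and the formation of blood vessels in the embryo.

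The 4 members shown here had the largest change at a step or the highest level in a group. On the log2(FPKM + 1) scale ADAM19 had the largest change from H1 to APLNR+ cells, ADAM15 the largest from APLNR+ to CD31+CD34+ cells and TIMP3 the largest from CD31+CD34+ to CD43+ cells. In the ratio of mean FPKM, ADAMTS9 changed more than ADAM19 at the first step, 53.1-fold against 21.4-fold. MMP14 had the highest mean level of the 69 genes in APLNR+ and CD31+CD34+ cells. In APLNR+ cells the mean of ADAM19 was close, at 96.6 FPKM against 98.2 for MMP14, and their libraries overlapped. Each sequence is the 250 bases before the RefSeq transcription start, written 5′ to 3′ on the strand of the gene, and capitals mark each match to the GC box GGGCGG on either strand. On GRCh38.p14 the windows are chr14:22836335-22836584 on the plus strand for MMP14, chr5:157575776-157576025 on the minus strand for ADAM19, chr1:155051066-155051315 on the plus strand for ADAM15 and chr22:32801455-32801704 on the plus strand for TIMP3.
MMP14: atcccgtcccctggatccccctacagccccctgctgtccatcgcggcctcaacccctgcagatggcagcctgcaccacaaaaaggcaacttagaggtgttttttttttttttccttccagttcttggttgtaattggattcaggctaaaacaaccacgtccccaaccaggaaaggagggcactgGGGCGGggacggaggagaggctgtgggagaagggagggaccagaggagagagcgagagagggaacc
ADAM19: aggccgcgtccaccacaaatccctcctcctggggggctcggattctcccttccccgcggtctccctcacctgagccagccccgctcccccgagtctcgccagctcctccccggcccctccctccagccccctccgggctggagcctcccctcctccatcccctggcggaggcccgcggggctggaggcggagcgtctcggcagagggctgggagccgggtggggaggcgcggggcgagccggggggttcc
ADAM15: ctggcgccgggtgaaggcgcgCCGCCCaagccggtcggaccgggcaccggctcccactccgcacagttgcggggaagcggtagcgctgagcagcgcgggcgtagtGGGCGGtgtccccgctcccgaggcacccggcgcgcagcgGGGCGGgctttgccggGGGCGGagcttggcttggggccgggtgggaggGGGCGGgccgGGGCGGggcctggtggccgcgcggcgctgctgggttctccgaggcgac
TIMP3: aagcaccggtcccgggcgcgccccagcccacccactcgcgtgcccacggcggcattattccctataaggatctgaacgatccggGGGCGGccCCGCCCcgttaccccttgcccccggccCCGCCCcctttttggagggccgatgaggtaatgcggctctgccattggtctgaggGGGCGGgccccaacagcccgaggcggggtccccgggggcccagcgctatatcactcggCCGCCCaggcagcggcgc
The MMP14 window held 1 GC box, starting 66 bases before the transcription start, the ADAM19 window held 0, the ADAM15 window held 6 and the TIMP3 window held 5. G and C made up 56.8% of the MMP14 window, 76.4% of the ADAM19 window, 79.6% of the ADAM15 window and 72.4% of the TIMP3 window, against a median of 58.0% over 35116 RefSeq promoters. None of the 4 windows held a match on either strand to the AP-1 motif TGANTCA, the TATA box TATAAA or the GATA motif AGATAA, so no match of the GC box overlapped another motif there. Among the 24 members past the filter that had a RefSeq promoter entry, 22 (91.7%) held a GC box, compared with 75.0% of the 10376 tested genes with an entry and 42.6% of all promoters. AP-1 matches were present in 1 of the 24 members, 6.01% of the tested genes and 6.57% of all promoters, TATA boxes in 1, 7.86% and 10.7%, and GATA matches in 0, 7.39% and 9.17%. A match is a run of letters and does not show that a factor binds there.

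Each later stage was compared with the stage before it, and CD43+ cells with H1 cells, to see when the transcripts of these genes changed. The test was limma on log2(FPKM + 1) over 14840 genes that reached 1 FPKM in 3 or more libraries. A call, raised or lowered, needed a Benjamini-Hochberg adjusted p below 0.05 together with a difference of 2-fold or more on that scale. The added 1 makes the fold of weakly expressed genes look smaller than it is. An exact permutation test of 3 libraries against 3 could not give a two-sided p below 0.1 and was not used. In bulk samples, fewer cells of a type and less RNA per cell cannot be told apart.

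From H1 to APLNR+ cells, 8 members were called raised and 5 lowered, together 34.2% of the 38, where 15.9% of all tested genes were called. The raised members were MMP2, MMP14, ADAM19, ADAMTS1, ADAMTS3, ADAMTS4, ADAMTS9 and TIMP3, and the lowered ones were ADAM22, ADAMTS8, ADAMTS16, ADAMTS20 and TIMP4. The last 4 of these passed the filter only through H1 libraries, so a lower level elsewhere was built into their choice. Raised calls took 21.1% of the members against 8.3% of all genes, and lowered calls 13.2% against 7.62%. The libraries of both groups did not overlap in 30 of the 38 members (78.9%), and in 66% of all genes. The median change was 0.17 on the log2 scale for the members and -0.12 for all genes.

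From APLNR+ to CD31+CD34+ cells, 10 members were called raised and 5 lowered (39.5%), with 29.6% of all genes called. The raised members were MMP2, MMP9, MMP15, ADAM15, ADAMTS4, ADAMTS9, ADAMTS10, ADAMTS12, TIMP1 and TIMP3, and the lowered ones were MMP17, ADAM9, ADAM19, ADAM23 and ADAMTS1. Raised calls took 26.3% of the members against 12.5% of all genes, whereas lowered calls took 13.2% against 17.1%. Libraries did not overlap in 32 members, 84.2% compared with 75.7% of all genes. The members' median change was 0.06 and that of all genes -0.01.

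From CD31+CD34+ to CD43+ cells the direction turned, with TIMP3 as the 1 raised member and 8 lowered (23.7%), where 14.4% of all genes were called. MMP2, MMP14, MMP15, MMP16, ADAM19, ADAMTS4, ADAMTS9 and ADAMTS10 were lowered. Lowered calls took 21.1% of the members against 8.79% of all genes, and raised calls 2.63% against 5.58%. Libraries did not overlap in 29 members, 76.3% compared with 58% of all genes. Of these 24 were lower in CD43+ cells, and of the 14840 genes 4448 were lower without overlap and 4154 higher. The median change of the members was -0.55, and that of all genes was close to 0.

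Across the whole course, from H1 to CD43+ cells, 8 members were called raised and 11 lowered (50%), with 37.1% of all genes called. The 11 include ADAMTS8, ADAMTS16, ADAMTS20 and TIMP4, which passed the filter only through H1 libraries. MMP25, also among the 11, reached 1 FPKM outside H1 only in APLNR+ replicate 1. Libraries did not overlap in 36 of 38 members, against 76.3% of all genes. Over the 3 steps, 15 members were called at no step, 14 at 1 step, 4 at 2 steps and 5 at all 3. Members called at any step were 60.5% of the 38, and 45.3% of all tested genes were. MMP2, MMP14, ADAM19, ADAMTS4 and ADAMTS9 were raised at the first step and lowered at the last, 13.2% of the members, and 2.8% of all genes had that order of calls. The highest mean of a member was in H1 cells for 12 genes, in APLNR+ cells for 8, in CD31+CD34+ cells for 14 and in CD43+ cells for 4. These were 31.6, 21.1, 36.8 and 10.5% of the members, and the shares of all tested genes were 34.9, 18.2, 24.6 and 22.4%.

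**Figure D1:**
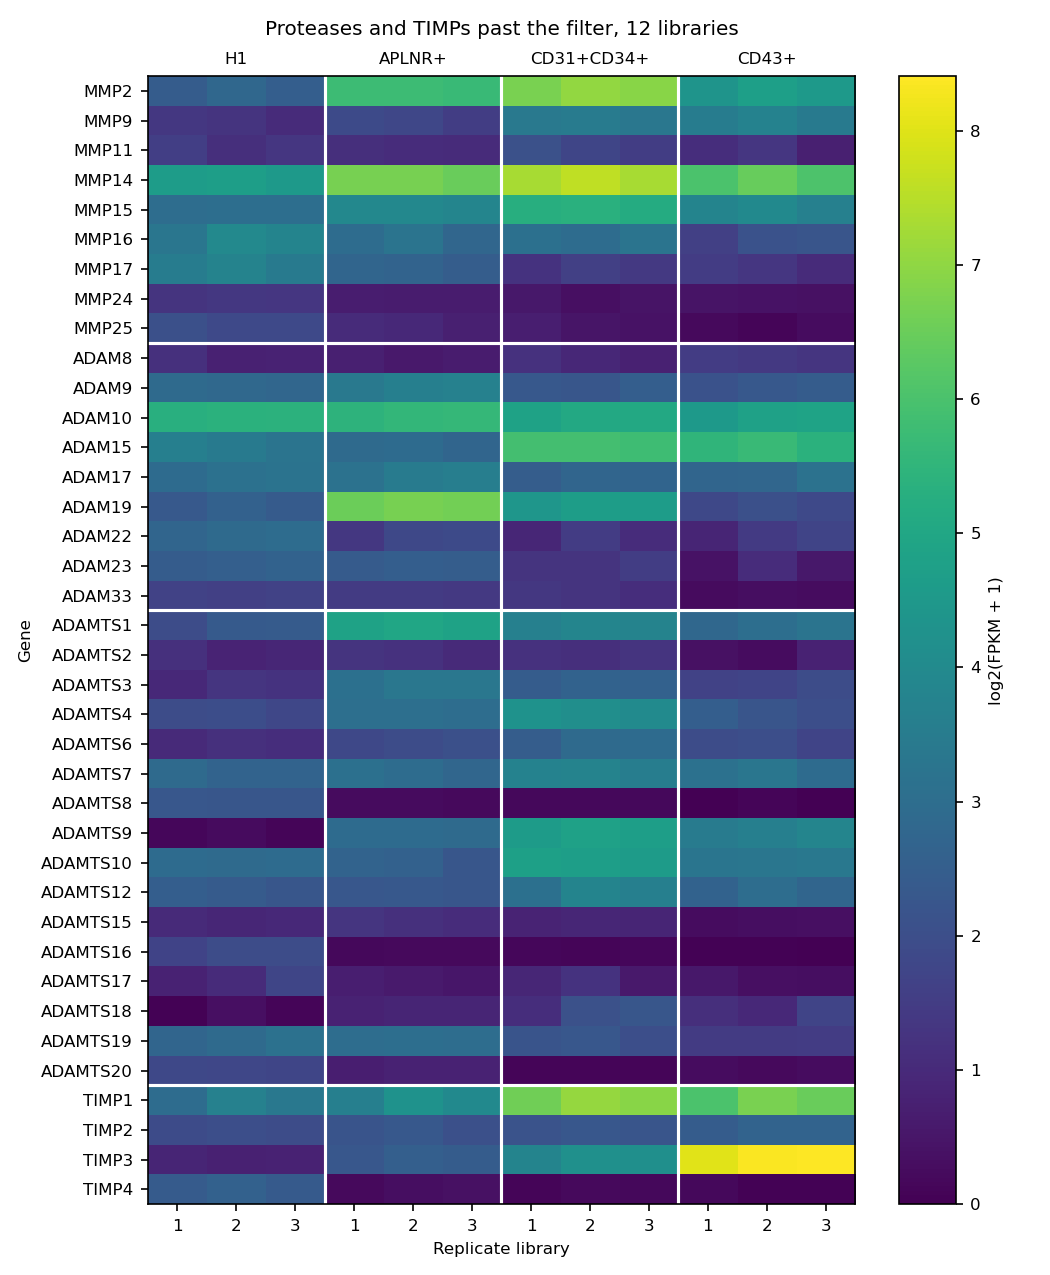
Level of the 38 genes that reached 1 FPKM in 3 or more libraries, as log2(FPKM + 1), with 1 column per library and white lines between the 4 groups and the 4 families. MMP14 and MMP2 were brightest in CD31+CD34+ libraries, ADAM19 in APLNR+ libraries and TIMP3 in CD43+ libraries.

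**Figure D2:**
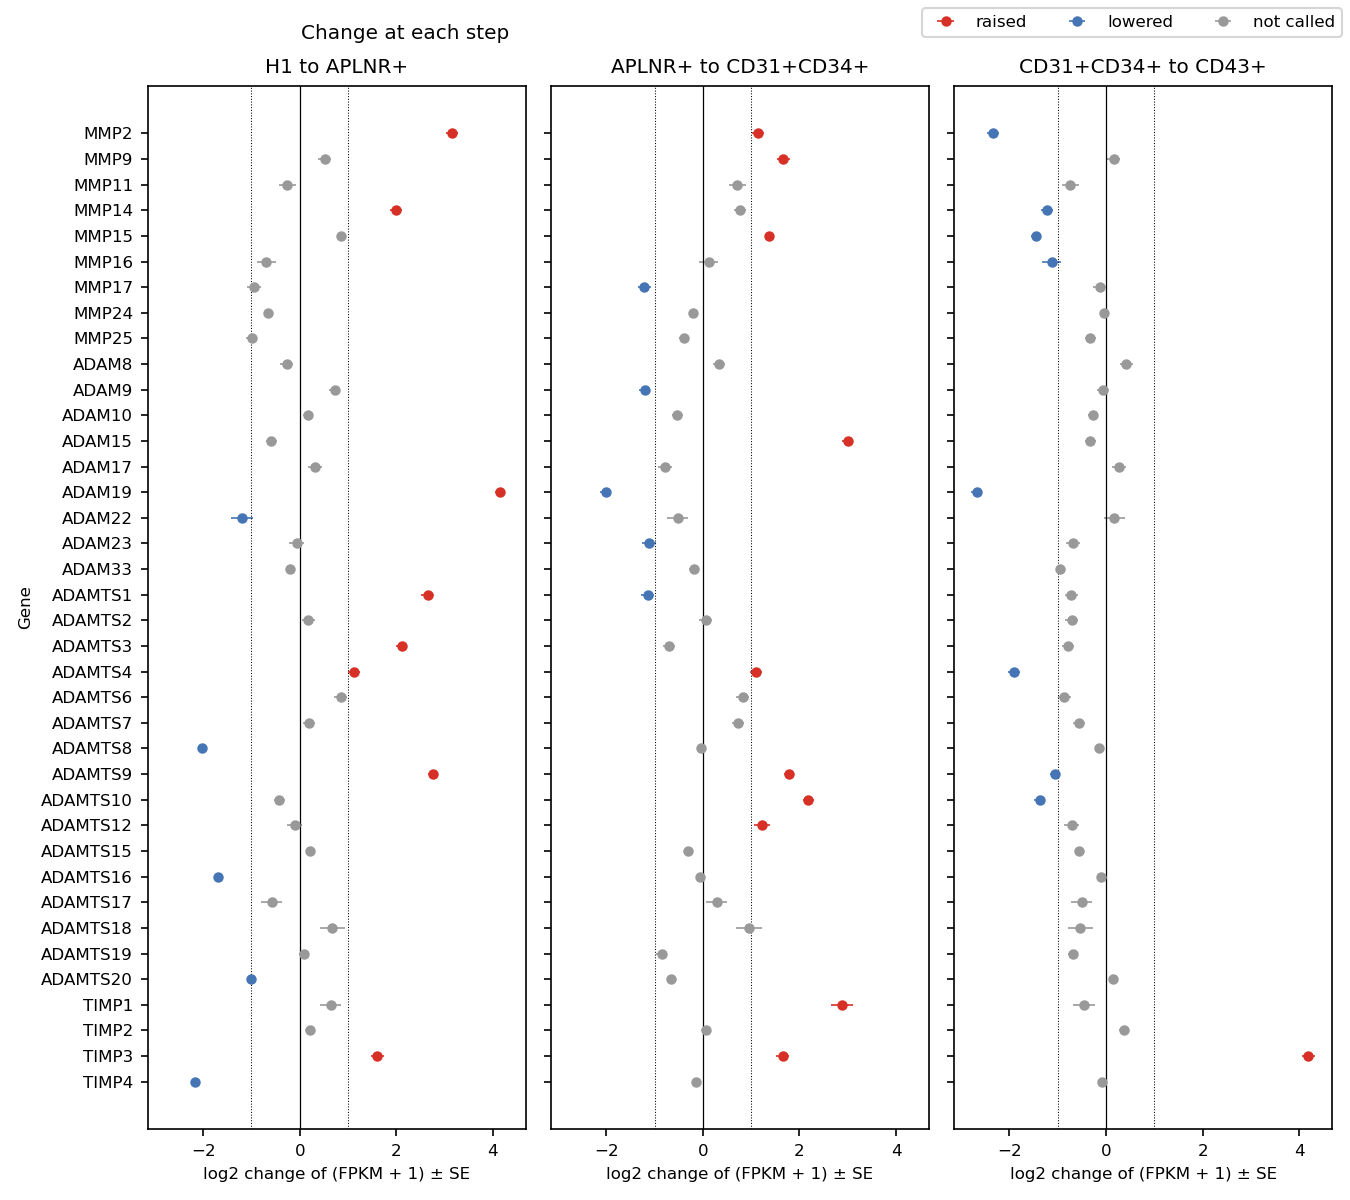
Change of each of the 38 genes at the 3 steps as a difference of log2(FPKM + 1), with the standard error as bars, dotted lines at a 2-fold change and colours for the call. At the last step TIMP3 was the only gene called raised, at 4.19, and 8 genes were called lowered.

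Among the gelatinases, which degrade denatured collagen and the type IV collagen of basement membranes, MMP2 was the more abundant. MMP2 measured 4.48, 6.06 and 4.69 FPKM in the H1 libraries, 53.2, 53.5 and 51.2 in APLNR+, 105, 131 and 119 for CD31+CD34+ and 19.5, 25.7 and 22.5 for CD43+. No libraries of different stages overlapped. The log2 change was 3.15 ± 0.13 (SE) from H1 to APLNR+ cells (limma adjusted p = 9.48e-10), 1.15 ± 0.13 from APLNR+ to CD31+CD34+ cells (adjusted p = 5.11e-06) and -2.34 ± 0.13 from CD31+CD34+ to CD43+ cells (adjusted p = 2.05e-08). Quantile normalization gave 0.93 for the middle step, short of a 2-fold change. CD43+ cells kept 4.45 times the mean level of H1 cells. MMP9, also a gelatinase and abundant in mature neutrophils, measured 1.57, 1.39 and 1.07 FPKM in H1, 2.73, 2.43 and 1.89 in APLNR+, 9.44, 10.4 and 8.97 for CD31+CD34+ and 10.4, 12.3 and 9.77 for CD43+. MMP9 rose by 1.67 ± 0.13 at the APLNR+ to CD31+CD34+ step (limma adjusted p = 2.3e-07). The step before was 0.51 ± 0.13 (adjusted p = 0.00449) without overlap of libraries, which is under 2-fold. The CD31+CD34+ and CD43+ libraries overlapped, with a change of 0.16 ± 0.13 (adjusted p = 0.328). Of the MMP9 exon bases 18.4% are shared with an antisense gene, and nothing states that counting used strand. The summed level of 6 myeloid markers was 1.31 to 2.09 FPKM for CD31+CD34+ and 18.4 to 18.7 FPKM in CD43+ libraries. LYZ averaged 1.205 and 13.16 FPKM in these 2 groups, CSF1R 0.231 and 4.84 FPKM and CD68 0.232 and 0.493 FPKM. ELANE was listed at 0, and MPO and CD14 averaged under 0.1 FPKM. The part of myeloid cells in the MMP9 level was not tested.

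The membrane-type MMPs were led by MMP14, which together with TIMP2 activates the proenzyme of MMP2 at the cell surface. MMP14 measured 23.8, 25.2 and 22.7 FPKM in H1 libraries, 102, 103 and 89.2 in APLNR+, 158, 193 and 156 for CD31+CD34+ and 64.0, 87.2 and 66.2 for CD43+. All APLNR+ libraries lay above all H1 and CD43+ libraries, and all CD31+CD34+ libraries above those. MMP14 rose 4.1-fold from H1 to APLNR+ cells, by 1.99 ± 0.13 on the log2 scale (limma adjusted p = 6.76e-08), and fell by 1.22 ± 0.13 at the last step (adjusted p = 6.72e-06). The change between, 0.77 ± 0.13 (adjusted p = 0.00015), was under 2-fold. MMP14 made up 57.3% of the summed MMP level in CD43+ cells, where that sum was 126.6 ± 18.9 FPKM (SD, n = 3), and 35.6% of it in H1 cells.

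MMP15, a transmembrane relative of MMP14, measured 7.07 to 7.30 FPKM in H1, 13.3 to 14.2 in APLNR+, 35.1 to 39.0 for CD31+CD34+ and 11.6 to 14.8 for CD43+ libraries. MMP15 rose by 1.37 ± 0.09 into the CD31+CD34+ stage (limma adjusted p = 7.94e-08) and fell by 1.45 ± 0.09 after it (adjusted p = 9.03e-08). Its APLNR+ and CD43+ libraries overlapped. The remaining membrane-type MMPs had their highest means in H1 cells. MMP16, which has a transmembrane anchor, averaged 12 ± 2.90 FPKM in H1 and 3.02 ± 0.880 in CD43+ cells (SD, n = 3). It fell by 1.13 ± 0.20 at the last step (limma adjusted p = 0.000443), and by 0.93 (adjusted p = 0.0017) without CD43+ replicate 1, which is under 2-fold. MMP17 and MMP25 are held by a lipid anchor. MMP17 fell by 2.29 ± 0.14 from H1 to CD43+ cells (limma adjusted p = 2.06e-08), from 11.0 ± 1.28 to 1.47 ± 0.401 FPKM. MMP25 changed by -1.72 ± 0.11 between the same groups, from 2.78 ± 0.316 to 0.147 ± 0.0554 FPKM. Outside H1, MMP25 reached 1 FPKM only in APLNR+ replicate 1 (1.05), so a fall was largely built into its choice. At the first step MMP17 changed by -0.95 and MMP25 by -0.998, both just short of a call. MMP17 was called without H1 replicate 3 (-1.01) or without APLNR+ replicate 1 (-1.003), and MMP25 without H1 replicate 2 (-1.03) or 3 (-1.03) or without APLNR+ replicate 1 (-1.06) or 2 (-1.02). MMP25 shares 35.2% of its exon bases with an antisense gene. MMP11 and MMP24 were called in no comparison, and their group means lay between 0.326 and 2.51 FPKM.

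The summed level of 8 stromal and smooth muscle markers was also highest in the APLNR+ and CD31+CD34+ libraries, where MMP2 and MMP14 were highest. The sum was 96.2 to 132 FPKM in H1, 509 to 668 in APLNR+, 605 to 707 for CD31+CD34+ and 177 to 209 for CD43+ libraries. TAGLN, at 466 FPKM in APLNR+ cells, and COL1A2, at 251 FPKM in CD31+CD34+ cells, had the highest levels in the list beside 274 FPKM of TAGLN in the latter. COL3A1, PDGFRB and ACTA2 went another way, with their highest means in CD43+ cells at 44.2, 17.5 and 34.8 FPKM. DCN, a defining fibroblast marker in that list, averaged under 0.1 FPKM in every group and LUM in H1 cells. The part of such cells in the MMP2 and MMP14 levels was not tested.

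**Figure D3:**
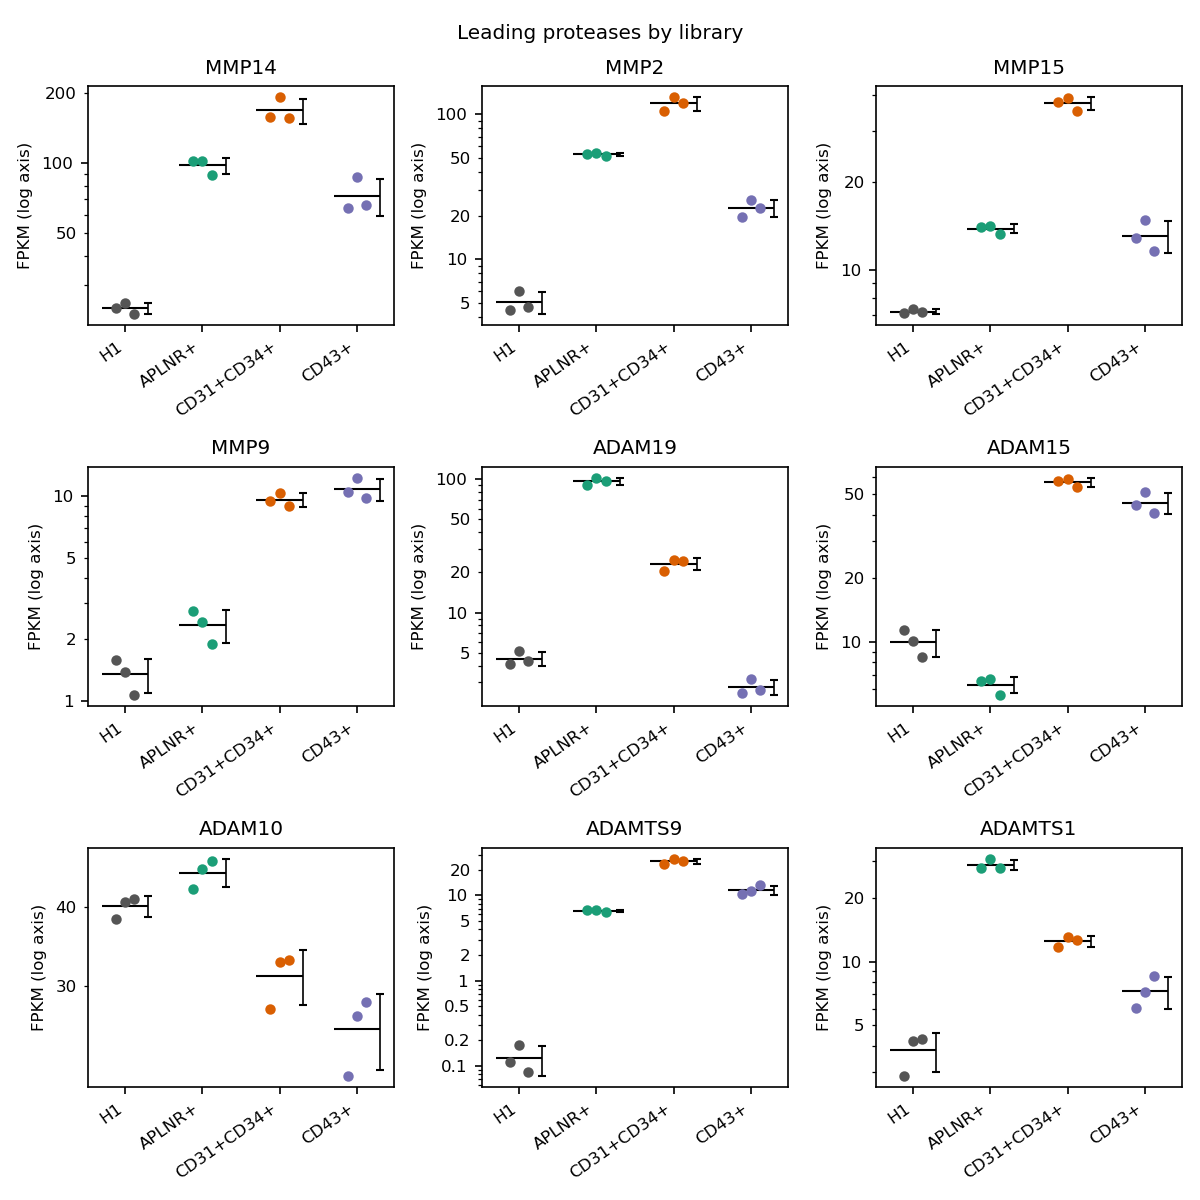
FPKM of 9 proteases in the 12 libraries on a log axis, with dots for libraries, lines for means and bars for the SD of 3 libraries. ADAM19 lay between 90.1 and 102 FPKM in APLNR+ libraries and at or below 24.9 FPKM elsewhere, and ADAM10 lay between 21.7 and 47.2 FPKM in all 12.

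Among the ADAMs, the main shedding enzymes, ADAM10 and ADAM17, were called in no comparison. ADAM10, the protease that makes the activating cut in Notch receptors, measured 38.3, 40.8 and 41.2 FPKM in H1, 42.7, 46.0 and 47.2 in APLNR+, 27.6, 32.8 and 33.0 for CD31+CD34+ and 21.7, 26.9 and 28.4 for CD43+ libraries. ADAM10 had the highest level of the 69 genes in H1 cells. None of its changes reached 2-fold, and the change from H1 to CD43+ cells was -0.63 ± 0.11 (limma adjusted p = 0.000189). ADAM17, which releases tumour necrosis factor and ligands of the epidermal growth factor receptor, averaged between 5.25 and 9.77 FPKM in the 4 groups, and its largest change was -0.78 ± 0.15 from APLNR+ to CD31+CD34+ cells (limma adjusted p = 0.000434). ADAM17 shares 12.3% of its exon bases with IAH1 on the opposite strand.

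ADAM19, also called meltrin beta, which takes part in heart valve and septum formation, was a gene of the APLNR+ stage. It measured 4.12, 5.10 and 4.31 FPKM in H1, 90.1, 102 and 97.7 in APLNR+, 20.4, 24.9 and 24.3 for CD31+CD34+ and 2.5, 3.17 and 2.65 for CD43+ libraries. The stages did not overlap, and the CD43+ libraries lay below those of H1. ADAM19 rose 21.4-fold at the first step, by 4.15 ± 0.11 (limma adjusted p = 3.12e-11), then fell by 2.02 ± 0.11 (adjusted p = 1.3e-08) and by 2.68 ± 0.11 (adjusted p = 2.26e-09). ADAM19 made up 53.8% of the summed ADAM level in APLNR+ cells.

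ADAM15, an ADAM with an integrin-binding motif that is found at endothelial junctions, measured 11.4, 10.1 and 8.45 FPKM in H1, 6.54, 6.69 and 5.64 in APLNR+, 57.9, 59.2 and 54.0 for CD31+CD34+ and 44.6, 51.3 and 40.8 for CD43+ libraries. It separated the earlier from the later stages, with its lowest values in APLNR+ libraries. ADAM15 rose 9.07-fold from APLNR+ to CD31+CD34+ cells, by 2.99 ± 0.12 (limma adjusted p = 8.5e-10), and the change into CD43+ cells was -0.32 ± 0.12 (adjusted p = 0.0356), which is under 2-fold. In CD31+CD34+ cells ADAM15 replaced ADAM19 as the ADAM with the highest level, at 44.7% of the family's sum.

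The other ADAMs past the filter averaged at most 10.9 FPKM in any group. ADAM9, a widely expressed ADAM, fell by 1.20 ± 0.12 from APLNR+ to CD31+CD34+ cells (limma adjusted p = 1.73e-06), from 10.9 ± 1.17 to 4.16 ± 0.519 FPKM (SD, n = 3). ADAM22 and ADAM23 lack an active protease site and bind LGI proteins in the nervous system. ADAM22 fell from 6.39 ± 0.631 to 2.26 ± 0.617 FPKM at the first step, a log2 change of -1.20 ± 0.22 (limma adjusted p = 0.000644). ADAM23 fell from 4.54 ± 0.164 to 1.57 ± 0.281 FPKM at the APLNR+ to CD31+CD34+ step, a change of -1.12 ± 0.15 (limma adjusted p = 3.29e-05) that was -0.97 under quantile normalization. ADAM33, a member linked to airway disease, averaged 2.11 FPKM in H1 and 0.219 in CD43+ cells, and fell by 1.35 ± 0.09 over the whole course (limma adjusted p = 3.05e-08). ADAM8, a leukocyte member, had its highest mean in CD43+ cells, 1.64 FPKM against 0.897 in H1, and was called in no comparison.

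Of the ADAMTSs that cut versican and related proteoglycans, ADAMTS1 peaked in APLNR+ cells and ADAMTS4 and ADAMTS9 in CD31+CD34+ cells. ADAMTS1 measured 2.89, 4.22 and 4.29 FPKM in H1, 27.9, 30.7 and 27.9 in APLNR+, 11.7, 13.1 and 12.6 for CD31+CD34+ and 6.04, 7.18 and 8.52 for CD43+ libraries. The stages did not overlap. ADAMTS1 rose by 2.65 ± 0.14 (limma adjusted p = 1.04e-08) and then fell by 1.15 ± 0.14 (adjusted p = 1.09e-05).

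ADAMTS9 measured 0.110, 0.178 and 0.0860 FPKM in H1, 6.75, 6.74 and 6.43 in APLNR+, 23.6, 26.9 and 25.1 for CD31+CD34+ and 10.3, 11.3 and 13.2 for CD43+ libraries. No stages overlapped, and H1 libraries stood near 0. ADAMTS9 rose by 2.76 ± 0.10 (limma adjusted p = 3.99e-10) and by 1.78 ± 0.10 (adjusted p = 1.61e-08), then fell by 1.06 ± 0.10 (adjusted p = 2.57e-06). That fall was -0.99 without CD43+ replicate 1 and -0.95 under quantile normalization, both under 2-fold. ADAMTS4, the first enzyme named an aggrecanase, had the same peak at a lower level, with 2.79 ± 0.282 FPKM in H1, 7.30 ± 0.213 in APLNR+, 16.9 ± 1.63 for CD31+CD34+ and 3.82 ± 0.797 for CD43+ cells (SD, n = 3). ADAMTS4 rose by 1.13 ± 0.12 and 1.11 ± 0.12 and fell by 1.91 ± 0.12 (limma adjusted p = 8.14e-06, 5.54e-06 and 9.75e-08).

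ADAMTS8, ADAMTS16 and ADAMTS20 were highest in H1 cells. Each reached 1 FPKM in the 3 H1 libraries alone and so entered the test only through the group where it was high, and their changes are given as a description. ADAMTS8 measured 3.82, 3.76 and 3.78 FPKM in H1 libraries and 0.164 to 0.190 FPKM in APLNR+ libraries, and was listed at 0.00401, 0.0941 and 0 in CD43+ libraries. Its change at the first step was -2.02 ± 0.07. ADAMTS16 averaged 2.69 FPKM in H1 and 0.144 in APLNR+ cells, a change of -1.68 ± 0.08. ADAMTS20, the closest relative of ADAMTS9, averaged 2.45 and 0.707 FPKM, a change of -1.02 ± 0.07 that was -0.98 without APLNR+ replicate 1 and -0.95 under upper-quartile or median-ratio scaling.

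ADAMTS3, which removes the amino propeptide of procollagen and processes the lymphatic growth factor VEGFC, averaged 1.24 ± 0.254 FPKM in H1, 8.64 ± 0.829 in APLNR+, 4.93 ± 0.405 for CD31+CD34+ and 2.44 ± 0.375 for CD43+ cells (SD, n = 3). It rose by 2.11 ± 0.12 at the first step (limma adjusted p = 2.47e-08) and was called at no other. ADAMTS10, which acts on fibrillin microfibrils, measured 6.52 to 6.72 FPKM in H1, 3.76 to 5.34 in APLNR+, 23.2 to 26.2 for CD31+CD34+ and 8.56 to 9.39 for CD43+ libraries. It rose by 2.19 ± 0.11 into the CD31+CD34+ stage (limma adjusted p = 6.05e-09) and fell by 1.38 ± 0.11 after it (adjusted p = 5.83e-07). ADAMTS12, which with ADAMTS7 cuts cartilage oligomeric matrix protein, rose by 1.22 ± 0.16 at the same step (limma adjusted p = 2.25e-05), from 3.89 ± 0.128 to 10.6 ± 2.65 FPKM. ADAMTS7 averaged 5.78 to 11.9 FPKM and was called in no comparison.

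ADAMTS18 and ADAMTS19 were called only between the ends of the course. ADAMTS18 measured 0.0430, 0.268 and 0.0895 FPKM in H1 and 1.20, 0.948 and 2.32 in CD43+ libraries, a change of 1.10 ± 0.26 (limma adjusted p = 0.00229) that was 0.87 (adjusted p = 0.0117) without CD43+ replicate 3. Its CD31+CD34+ libraries, at 1.14, 3.25 and 3.73 FPKM, were uneven, and the step into them was 0.96 with all libraries and 1.31 without CD31+CD34+ replicate 1, which is a call. ADAMTS19 fell by 1.45 ± 0.11 (limma adjusted p = 1.2e-07), from 6.66 ± 1.03 to 1.78 FPKM. ADAMTS2, ADAMTS6, ADAMTS15 and ADAMTS17 were called in no comparison, and their group means did not exceed 5.87 FPKM. ADAMTS6 changed by -0.86 at the last step and by -1.01 without CD31+CD34+ replicate 1, and ADAM33 by -0.95 and by -1.03 without CD31+CD34+ replicate 3, so that these calls also depended on 1 library.

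All 4 inhibitors were expressed, and each had its own course. TIMP3, which binds to the matrix, measured 0.820, 0.703 and 0.744 FPKM in H1, 3.88, 4.83 and 4.40 in APLNR+, 13.0, 17.8 and 17.2 for CD31+CD34+ and 261, 327 and 339 for CD43+ libraries. The stages did not overlap, and the CD43+ values were the highest of any of the 69 genes. TIMP3 was raised at every step, by 1.61 ± 0.13, 1.65 ± 0.13 and 4.19 ± 0.13 (limma adjusted p = 7.1e-07, 3.42e-07 and 3.16e-10). The last step was 19.3-fold in mean FPKM, and the mean of CD43+ cells was 409 times that of H1 cells. TIMP3 lies within SYN3 on the opposite strand but shares 0 exon bases with it, and SYN3 averaged 0.982 FPKM in CD43+ cells.

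TIMP1, a secreted inhibitor that acts weakly on membrane-type MMPs, rose at a different step. It measured 6.81, 11.8 and 9.29 FPKM in H1, 11.5, 18.6 and 14.8 in APLNR+, 96.0, 134 and 119 for CD31+CD34+ and 64.2, 103 and 88.1 for CD43+ libraries. H1 overlapped APLNR+ and CD31+CD34+ overlapped CD43+, with a wide gap between these pairs. TIMP1 rose 7.77-fold from APLNR+ to CD31+CD34+ cells, by 2.89 ± 0.23 (limma adjusted p = 2.67e-07), while the last step was -0.46 ± 0.23 (adjusted p = 0.105).

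TIMP2, the partner of MMP14, had the flattest course of the 4 inhibitors. It averaged 2.90 ± 0.153 FPKM in H1 and 5.06 ± 0.494 in CD43+ cells (SD, n = 3), and that change, 0.63 ± 0.10 (limma adjusted p = 9.9e-05), was under 2-fold. TIMP4 was highest in H1 cells, at 4.37, 5.08 and 4.25 FPKM in H1 libraries and at or below 0.311 FPKM in the 9 others. Its change at the first step was -2.16 ± 0.09, again in a gene that passed the filter only through H1 libraries, and 10.3% of its exon bases are shared with SYN2 on the opposite strand.

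The balance of inhibitor and MMP transcripts, taken as the sum of the 4 TIMPs over the sum of the 24 MMPs in FPKM, differed between the stages. The ratio was 0.232, 0.284 and 0.265 in H1, 0.101, 0.145 and 0.133 in APLNR+, 0.346, 0.404 and 0.418 for CD31+CD34+ and 2.88, 2.94 and 3.69 for CD43+ libraries. The stages did not overlap, and the ratio was lowest in APLNR+ and highest in CD43+ libraries. The TIMP sum averaged 17.5 ± 2.98, 23.1 ± 4.31, 136 ± 22.1 and 399 ± 60.2 FPKM in the 4 groups in order, and the MMP sum 67.1 ± 5.11, 183 ± 11.4, 349 ± 33.2 and 126.6 ± 18.9 FPKM (SD, n = 3). TIMP3 alone supplied 77.4% of the TIMP sum in CD43+ cells and TIMP1 85.5% of it in CD31+CD34+ cells. These are transcript sums and do not measure the proteins.

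**Figure D4:**
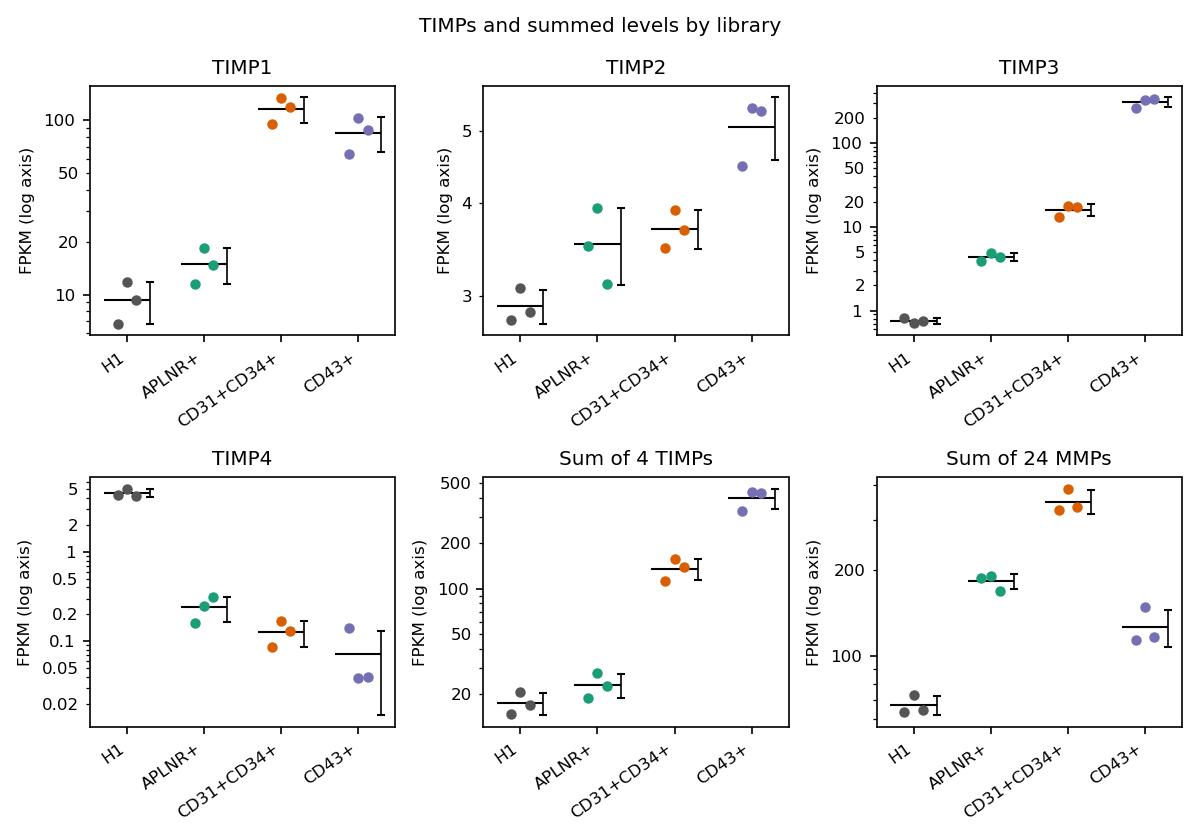
FPKM of the 4 TIMPs and of the TIMP and MMP sums in the 12 libraries on log axes, with dots for libraries, lines for means and bars for the SD of 3 libraries. TIMP3 reached 261 to 339 FPKM in CD43+ libraries, where the MMP sum was lower than in CD31+CD34+ libraries.

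A list of 52 genes that act with these proteases, as other inhibitors, activators and receptors, chaperones of ADAMs, ADAMTS-like proteins or substrates, gave 38 genes past the same filter. From H1 to APLNR+ cells 8 were called raised and 4 lowered, 31.6% beside 15.9% of all genes, and from APLNR+ to CD31+CD34+ cells 13 and 4, 44.7% beside 29.6%. From CD31+CD34+ to CD43+ cells 4 were called raised and 14 lowered, 47.4% beside 14.4%, and from H1 to CD43+ cells 13 and 8, 55.3% beside 37.1%. A2M and ADAMTSL4, raised in both of these comparisons, owed their pass of the filter to CD43+ libraries. The list was chosen by hand with earlier results of these data known, so its shares are a description only.

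The other inhibitors were led by SERPINE2, protease nexin, which blocks thrombin and urokinase. SERPINE2 averaged 12.8 ± 1.18 FPKM in H1, 399 ± 57.7 in APLNR+, 67.8 ± 9.45 for CD31+CD34+ and 15.8 ± 2.44 for CD43+ cells (SD, n = 3), and it rose by 4.85 ± 0.14 (limma adjusted p = 7.48e-11) before falling at both later steps. A2M, a broad trapping inhibitor, averaged 0.854 ± 0.523 FPKM in CD31+CD34+ and 8.01 ± 1.76 FPKM in CD43+ cells, a change of 2.30 ± 0.19. Outside CD43+ it reached 1 FPKM only in CD31+CD34+ replicate 3 (1.44), so a rise was largely built into its choice. SPOCK2, a matrix proteoglycan, rose by 1.78 ± 0.13 into the CD31+CD34+ stage (limma adjusted p = 1.55e-07). It stood in the list beside its relatives SPOCK1 and SPOCK3, and its rise is not read as more inhibition of MMPs. RECK, a membrane inhibitor of MMP2, MMP9 and MMP14, averaged 2.29 to 4.49 FPKM and was called in no comparison.

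Among the activators, FURIN, which cleaves the propeptide of MMP14 and of many ADAMs, averaged 3.39 ± 0.130 FPKM in H1, 14.6 ± 1.63 in APLNR+, 74.8 ± 3.10 for CD31+CD34+ and 36.6 ± 3.69 for CD43+ cells (SD, n = 3). FURIN rose by 1.83 ± 0.10 and 2.28 ± 0.10 at the first steps (limma adjusted p = 1.68e-08 and 2.24e-09). Its last step was -1.01 ± 0.10, and -0.98 under upper-quartile or median-ratio scaling, -0.98 without CD31+CD34+ replicate 2 and -0.94 without CD43+ replicate 3, so the call at that step was lost. PLAT, the tissue plasminogen activator, rose by 2.90 ± 0.11 into the CD31+CD34+ stage (limma adjusted p = 9.05e-10) and fell by 1.53 ± 0.11 after it (adjusted p = 3.64e-07). PCSK6, a relative of FURIN, rose by 1.82 ± 0.22 at the last step (limma adjusted p = 2.23e-05). The protease receptor LRP1, which clears MMPs and their complexes, fell by 2.05 ± 0.11 at that step (limma adjusted p = 1.47e-08), and BSG, an inducer of MMPs, had the highest level of the group with 312 ± 21.7 FPKM in CD31+CD34+ cells.

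Several chaperones of the shedding ADAMs changed, whereas ADAM10 and ADAM17 were not called. The tetraspanins TSPAN5, TSPAN14 and TSPAN15, which carry ADAM10 to the cell surface, rose by 2.30 ± 0.14, 1.56 ± 0.12 and 2.62 ± 0.14 from APLNR+ to CD31+CD34+ cells (limma adjusted p = 2.87e-08, 2.37e-07 and 8.17e-09). The other tetraspanins in the list were not called raised at that step. TSPAN33, 1 of them, averaged 13.1, 6.37, 2.55 and 13.4 FPKM in the 4 groups in order, and rose by 2.01 ± 0.12 at the last step (limma adjusted p = 3.88e-08). FRMD8, which stabilizes the complex of ADAM17 with its carrier, rose by 1.83 ± 0.24 into the CD31+CD34+ stage (limma adjusted p = 2.19e-05). RHBDF1, that carrier, fell by 2.01 ± 0.12 at the last step (limma adjusted p = 3.88e-08). NOTCH1, a substrate of ADAM10, averaged 6.09 ± 0.109, 5.87 ± 0.873, 31.5 ± 2.59 and 18.1 ± 2.64 FPKM in the 4 groups (SD, n = 3) and rose by 2.25 ± 0.12 at the middle step (limma adjusted p = 1.15e-08).

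ADAMTSL2, an ADAMTS-like protein without protease activity, was high in a single group. It averaged 25.4 ± 2.57 FPKM in CD31+CD34+ cells and 0.346 to 1.25 FPKM in the other 3, and it rose by 3.55 ± 0.11 and fell by 4.23 ± 0.11 (limma adjusted p = 1.25e-10 and 8.07e-11). VCAN, which encodes versican, a substrate of ADAMTS1, ADAMTS4 and ADAMTS9, averaged 76.1 ± 8.88 FPKM in H1, 36.6 ± 4.66 in APLNR+, 37.6 ± 1.67 for CD31+CD34+ and 6.47 ± 1.01 for CD43+ cells (SD, n = 3). Its first step was -1.04 ± 0.13, and -0.93 under upper-quartile or median-ratio scaling, and its last step was -2.38 ± 0.13 (limma adjusted p = 1.88e-08). VWF, the substrate of ADAMTS13, rose by 2.78 ± 0.09 into the CD31+CD34+ stage (limma adjusted p = 1.75e-10), where ADAMTS13 itself measured 0.736, 1.19 and 0.931 FPKM. Among shed adhesion proteins, CDH5 of endothelial junctions fell by 1.49 ± 0.15, CDH2 by 1.82 ± 0.22, L1CAM by 2.25 ± 0.12 and the amyloid precursor APP by 1.43 ± 0.11 at the last step (limma adjusted p = 5.03e-06, 2.25e-05, 1.57e-08 and 6.61e-07).

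**Figure D5:**
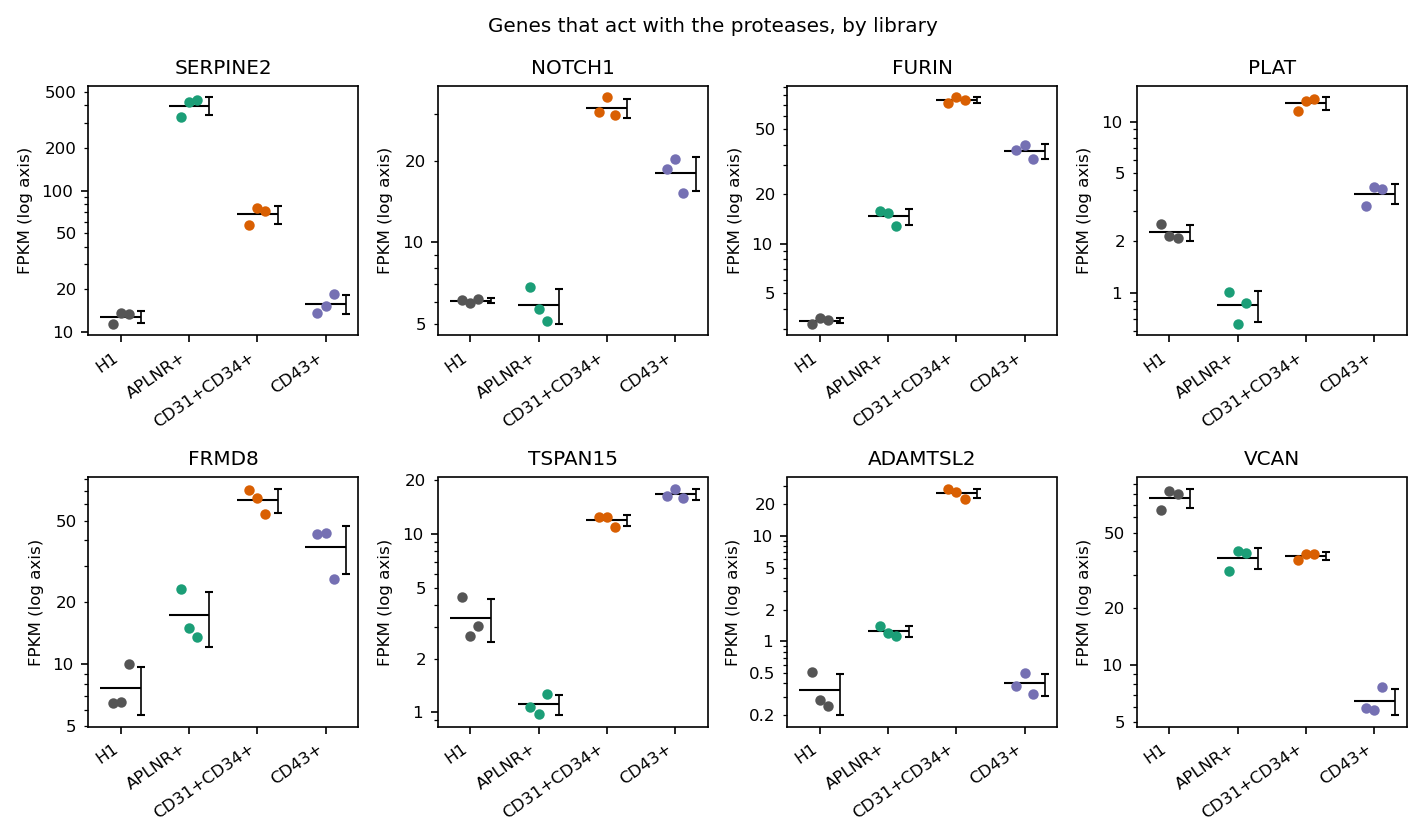
FPKM of 8 genes that act with the proteases, in the 12 libraries on log axes, with dots for libraries, lines for means and bars for the SD of 3 libraries. SERPINE2 peaked in APLNR+ libraries, and FURIN, PLAT, FRMD8, NOTCH1 and ADAMTSL2 in CD31+CD34+ libraries.

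The 31 members that did not pass the filter included 4 listed at 0 in all 12 libraries, MMP3, MMP7, ADAM5 and ADAM6. An exact 0 in this table can be a failed estimate, since the table gives 0 in 6 libraries for the translation factor EEF1A1, and 1839 FPKM or more in the others. Another 12 never reached 0.1 FPKM, and the remaining 15 had a highest value between 0.1 and 1.34 FPKM. None of these 31 entered the test. The collagenase MMP1 did not exceed 0.174 FPKM and MMP13 did not exceed 0.0442. MMP12, macrophage elastase, was 0.305, 0.299 and 0.307 FPKM in the APLNR+ libraries and at most 0.0872 in the others. ADAMTS5, an aggrecanase, lay just outside the filter, with 1.10, 1.02 and 0.978 FPKM in APLNR+ libraries and at most 0.112 elsewhere. MMP28 was 0.583 to 0.813 FPKM for CD31+CD34+ and 0.462 to 0.859 for CD43+ libraries, against 0 to 0.0477 in H1 and APLNR+. MMP23B held the highest value of these genes, 1.34 FPKM in CD31+CD34+ replicate 1, and reads of MMP23A and MMP23B, near-identical copies, may be split between them. Just inside the filter, ADAM8 reached 1 FPKM in 5 libraries. It measured 1.45 to 1.83 FPKM in CD43+ libraries, 1.24 in H1 replicate 1 and 1.32 in CD31+CD34+ replicate 1.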

How the data were processed

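Total RNA of H1 cells and of the 3 sorted populations had been sequenced by the submitters. The authors deposited 1 table of FPKM values, normalized for transcript length and mapped fragments, and the submitters' processing notes name BWA, Bowtie, RSEM and hg19 without a role or version. Strand use in counting, read totals and the annotation are not given in the sources used here. Samples were grouped by their titles. The members and the gene lists were chosen with earlier results of these data known.

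Of 58365 lines with values, 1 text line was left out, and a symbol on several lines (345 symbols, no member) was reduced to a single line, giving 56593 symbols. The deposited FPKM values were tested as log2(FPKM + 1) with limma 3.58.1 in R 4.3.3 (trended eBayes, 4 groups in one model without covariates), over 14840 genes at 1 FPKM in 3 or more libraries, and Benjamini-Hochberg adjustment ran over those genes. The fit was tested on simulated data. Tables and figures were made with Python 3.11.15, pandas 2.3.3 and matplotlib 3.10.9. TIMP1 to TIMP4, ADAM10, ADAM17, MMP2, MMP9, MMP14 and every called member were named, as were partner genes called in 2 or more comparisons or highest in their role, of which those that illustrate a role were described. Of these, 1 partner gene is not reported here. The ratio of TIMP to MMP sums, the members below the filter and the 4 promoters were chosen after values had been seen. Promoter sequences came from RefSeq (GRCh38.p14, without chr8, 24 of 38 members matched) and shared exon bases from GENCODE 29 (38 of 38). Alternatives covered the pseudocount, the filter, scaling, the replicate block, duplicate lines and leaving out each library.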

Additional observations from a re-analysis of the deposited data

How the results depend on the processing

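No call reversed under any alternative run. Of 56 calls of members over the 4 comparisons, 50 were kept in every setting, and of 96 uncalled pairs of member and comparison 24 were called in at least 1 setting. With a pseudocount of 0.1, 17 members were called from CD31+CD34+ to CD43+ cells and 20 partner genes from H1 to APLNR+ cells, in place of 9 and 12, while the share of all genes called became 24.3 and 24.5%. Requiring a mean of at least 5 FPKM kept 37 of the 56 called and 35 of the 96 uncalled pairs in the test. With that filter 7 members were called from H1 to APLNR+ and 8 from H1 to CD43+, and 12 partner genes from H1 to CD43+. Of the 8622 genes then tested, 13.8% were called from H1 to APLNR+ and 38.4% from H1 to CD43+. Without a minimum change, the members called were 27, 29, 24 and 36 in the order of the comparisons, with 57.9, 73.8, 53.6 and 74.6% of all genes called, and the partner genes 25, 29, 30 and 32. At 5 FPKM in 3 or more libraries 22 members remained, and at 0.5 FPKM 44.

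Leaving out 1 library at a time, over a fixed set of tested genes, gave 13 to 15, 15 to 16, 7 to 10 and 18 to 19 members, 10 to 12, 16 to 17, 16 to 19 and 20 to 21 partner genes, and 32 to 38 members at 1 FPKM. Quantile normalization moved the median change of all genes from H1 to CD43+ cells from -0.10 to 0.02. Same-numbered libraries of different groups correlated in their deviations from the group means at 0.196 to 0.429 for number 1, 0.0254 to 0.247 for number 2 and -0.0214 to 0.269 for number 3, those of different numbers at -0.404 to 0.289, and 7 of 12 libraries correlated best with their own number, so the numbers were not taken to pair the samples. With the replicate number as a block, the members called were 13, 15, 9 and 19 and the partner genes 12, 17, 18 and 21, as without it. The depth behind low FPKM values is unknown, which limits what can be said of members near 0.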
